A study of Homo sapiens with 17 samples.

Results

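The proteasome subunit genes were taken as the protein-coding genes of GENCODE release 44 whose symbol is PSMA, PSMB, PSMC, PSMD, PSME, PSMF or PSMG followed by a digit, which gave 48 of 20046 protein-coding genes. PSMC3IP and PSME3IP1, whose symbols run on after the digit, do not belong to the list. By the role of their products the genes fall into 19 of the core particle, 17 of the regulatory particle, 7 assembly chaperones and 5 alternative caps and inhibitors. In each time point 43 of the 48 reached the count minimum and were tested, and the other 5 (PSMA8, PSMB8, PSMB9, PSMB11 and PSMD5) were read at or near 0. The members were counted on 1 transcript each, the one with the highest count.

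The proteasome is the protease that takes up proteins marked with ubiquitin and cuts them into peptides. Its core particle is a barrel of stacked rings: the outer rings of alpha subunits (PSMA genes) gate the entrance, and the inner rings of beta subunits (PSMB genes) hold the cutting sites. The regulatory particle sits on the barrel end. Its base holds a ring of ATPases (PSMC genes) that unfold the substrate, and its lid (most PSMD genes) takes off the ubiquitin chain. Each assembled proteasome holds equal numbers of each constitutive core subunit. 

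HEK293 cells, a line derived from human embryonic kidney cells, were electroporated with a ribonucleoprotein of Cas9 or of dCas9, its form that binds DNA without cutting. Both carried the guide sgIntron, which targets intron 12 of JAK2, so the dCas9 cells served as the control that shared the electroporation and the guide. Cells were lysed after 36 or 72 h, and ribosome footprints (the mRNA pieces that ribosomes protect from nuclease) and mRNA were sequenced in 17 libraries. At 36 h there were 2 footprint libraries of each nuclease, 3 mRNA libraries of Cas9 and 2 of dCas9, and at 72 h there were 2 libraries of each kind. The labels give 300 pmol of nuclease and 300 pmol of guide, amounts that the methods list as well for a larger format. The methods also list smaller amounts for a smaller format, and they describe replicates pooled from several small electroporations. The dose is therefore uncertain. The guide was synthetic at 36 h and transcribed in vitro at 72 h, and per the methods the aligner and annotation differed too. The labels name HISAT2 for every library, so the sources conflict on the aligner at 72 h. Time cannot be told apart from these differences, and each time point was tested within itself.

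Total counts over the transcripts used were 689636 to 8864461 in the footprint libraries and 25095505 to 42825667 in the mRNA libraries. The shallowest footprint library was dCas9 replicate e at 36 h. At 72 h the dCas9 mRNA replicates a and b differed more than the Cas9 pair, with a chi-square per degree of freedom of 46.2 against 16.0. The proteasome genes took 0.825 to 0.876% of the counts in each footprint library and 0.697 to 0.793% in each mRNA library. As a check of the line, the neurofilament gene NEFL, which HEK293 cells are known to express, lay at 47.4 to 63.3 CPM in the 9 mRNA libraries, NEFM at 2.52 to 13.8 CPM and LIN28B at 41.0 to 62.2 CPM. The leukocyte gene PTPRC reached at most 0.732 CPM and the liver gene ALB at most 0.231 CPM. Levels are in CPM, the count scaled to a common library total, after TMM scaling.

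The promoters of the 4 members whose mRNA passed the test below as lower in Cas9 cells at 72 h are shown first. Of all genes tested 5.2% passed in that direction. Fitted on the mRNA libraries alone, PSMC5 kept its call, and PSMD2, PSMF1 and PSMB2 did not. The promoter of PSMB3 is added as one that holds a match to the motif TGACNNNGC, the core of the antioxidant response element bound by NFE2L1, NFE2L2 and their partners, which are known to drive proteasome genes. Each line gives 250 bases upstream of the RefSeq transcript start (GRCh38.p14), 5′ to 3′ on the gene's strand, and capitals mark the match.

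PSMC5, chr17:63827181-63827430, plus strand: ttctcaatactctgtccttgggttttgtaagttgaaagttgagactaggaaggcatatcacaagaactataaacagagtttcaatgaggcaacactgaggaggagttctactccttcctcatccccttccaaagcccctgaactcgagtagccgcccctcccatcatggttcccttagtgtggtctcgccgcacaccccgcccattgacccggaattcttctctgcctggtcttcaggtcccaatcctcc
PSMD2, chr3:184298991-184299240, plus strand: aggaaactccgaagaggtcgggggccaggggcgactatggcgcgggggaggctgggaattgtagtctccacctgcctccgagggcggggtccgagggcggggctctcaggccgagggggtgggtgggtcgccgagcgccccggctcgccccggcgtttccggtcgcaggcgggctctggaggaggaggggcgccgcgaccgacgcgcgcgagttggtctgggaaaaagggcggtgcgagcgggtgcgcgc
PSMF1, chr20:1113013-1113262, plus strand: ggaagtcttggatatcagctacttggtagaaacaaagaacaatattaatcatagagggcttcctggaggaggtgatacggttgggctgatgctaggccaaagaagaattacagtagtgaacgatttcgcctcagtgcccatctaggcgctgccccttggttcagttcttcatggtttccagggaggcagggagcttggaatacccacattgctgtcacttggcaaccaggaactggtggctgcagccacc
PSMB2, chr1:35641527-35641776, minus strand: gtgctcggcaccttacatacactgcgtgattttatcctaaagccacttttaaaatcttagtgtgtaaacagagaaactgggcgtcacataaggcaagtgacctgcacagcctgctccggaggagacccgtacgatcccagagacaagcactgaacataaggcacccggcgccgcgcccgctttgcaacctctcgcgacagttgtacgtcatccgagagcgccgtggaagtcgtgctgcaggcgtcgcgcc
PSMB3, chr17:38752491-38752740, plus strand: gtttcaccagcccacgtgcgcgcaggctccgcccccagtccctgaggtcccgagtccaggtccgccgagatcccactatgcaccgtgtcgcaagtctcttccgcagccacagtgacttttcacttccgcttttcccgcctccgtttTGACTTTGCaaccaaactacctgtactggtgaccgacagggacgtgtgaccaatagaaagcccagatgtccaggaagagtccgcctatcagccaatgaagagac

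The RefSeq table had a promoter window of 300 bases (250 before and 50 after the start) for 42 of the 48 genes, and not for PSMA7, PSMB1, PSMB6, PSMB7, PSMD4 and PSMG3. For each gene the window nearest to the start of its transcript was taken, which for PSMA1 lay 123231 bases from that start. On either strand the motif stood in 12 of the 42 windows (28.6%), beside 4687 of 35116 windows of all genes (13.3%). It was in 2 of 15 windows of the core particle, 4 of 16 of the regulatory particle, 3 of 6 of the chaperones and 3 of 5 of the caps. The windows of PSMC5, PSMD2, PSMF1 and PSMB2 held no match, and that of PSMB3 held 1, at 104 bases before the start. A match is a run of letters and was not tested as a binding site.

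The first question was how evenly the subunits of 1 complex were made. Levels were compared between genes per coding length, as CPM per 1000 codons. In dCas9 cells at 72 h, the 14 constitutive core genes had a median footprint level of 1230 per 1000 codons and the 17 regulatory particle genes one of 430. The median of the core was 2.75 to 3.09 times that of the regulatory particle in all 8 footprint libraries and 1.84 to 2.33 times in all 9 mRNA libraries, so the footprint and mRNA ranges did not overlap. Within the core, the median beta gene lay 1.9 to 2.57 times above the median alpha gene in footprints and 1.16 to 1.52 times above it in mRNA. These ratios describe the libraries, and the genes of a ring are not replicates.

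Footprint levels within the barrel were not equal. In dCas9 cells at 72 h they ran from 577 ± 18.9 per 1000 codons (SD, n = 2) for PSMA6, an alpha subunit, to 2625 ± 88.2 for PSMB3, a beta subunit, a 4.55-fold range. PSMB1, the beta subunit next in order, lay at 2614 ± 136, and the difference between PSMB3 and PSMB1 was within the SD. PSMB2 followed with 2028 ± 56.8. The mRNA levels of the same 14 genes spanned 3.82-fold, from PSMA3 to PSMB1. On the log2 scale the SD across the 14 genes was 0.66 for footprints and 0.58 for mRNA.

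In the regulatory particle the footprint level ran 5-fold, from 248 ± 4.52 per 1000 codons for PSMD1, the long scaffold of the base, to 1240 ± 93.7 for PSMD8, a lid subunit. The 6 ATPases spanned 2.75-fold in footprints, from PSMC6 to PSMC5, and 1.81-fold in mRNA. Chaperones, which help the rings to assemble and then leave, had a median footprint level of 174. PSME4, the large cap PA200, was lowest of the tested genes at 44 ± 4.12, and PSMB10 stood beside it at 50.8 ± 5.85.

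**Figure D1:**
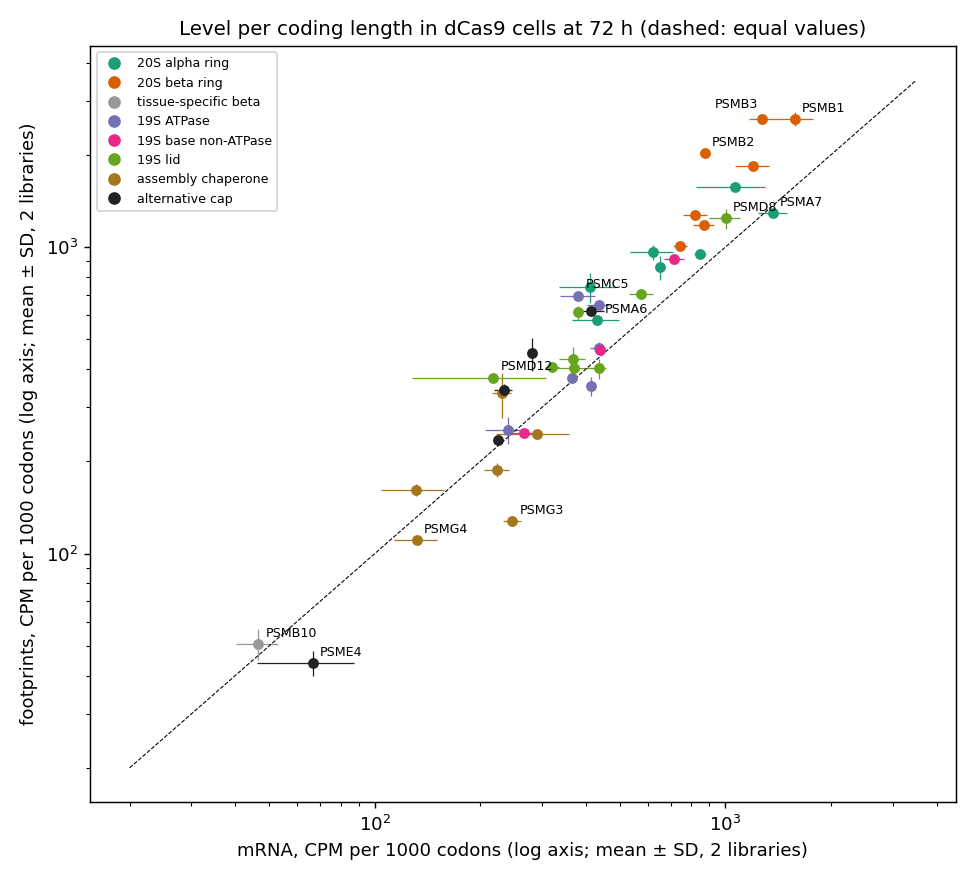
Level of 43 proteasome genes in dCas9 cells at 72 h, in CPM per 1000 codons, with mRNA on the x axis and footprints on the y axis (both log axes); each point is a gene with its mean and SD over 2 libraries, coloured by subunit class, and the dashed line marks equal values. The beta ring genes lie above the dashed line at the top right, up to PSMB3 at 2625, and PSME4 and PSMB10 lie at the lower left.

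PSMB5, PSMB6 and PSMB7 carry the catalytic sites of the constitutive barrel, and PSMB8, PSMB9 and PSMB10 replace them in the immunoproteasome, which interferon induces. All 3 constitutive genes were read well in every library. At 72 h the footprints of PSMB5 were 316 and 289 CPM in Cas9 and 295 and 282 CPM in dCas9 cells, those of PSMB6 317 and 303 against 283 and 279, and those of PSMB7 226 and 252 against 255 and 265. PSMB6 lay higher and PSMB7 lower in Cas9 cells without overlap, and the groups of PSMB5 overlapped. The share of all genes without overlap was not counted for footprints. In mRNA at 72 h every Cas9 value was above every dCas9 value in 23.8% of genes and below in 25.8%. None of PSMB5, PSMB6 and PSMB7 passed the test. Their immunoproteasome counterparts were low. PSMB8 had 0 footprint counts in all 8 libraries, where 3 counts, the limit that a count of 0 allows, amount to 0.357 to 4.75 CPM, and 0 to 12 mRNA counts. PSMB9 had 0 to 12 footprint counts and 0 to 25 mRNA counts. PSMB10 reached the count minimum, with 6.91 to 16.1 CPM in footprints and 10.7 to 28.7 CPM in mRNA over the 17 libraries. PSMB11, the beta subunit of the thymus, and PSMA8, the alpha subunit of the testis, had at most 3 counts in any library. PSMD5, a chaperone of the ATPase ring, had 0 to 6 footprint counts and 7 to 59 mRNA counts. These limits cover counting error only.

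PSME1 and PSME2 encode the cap PA28, which is also induced by interferon. Their footprints at 72 h were 75.9 and 83.7 CPM in Cas9 and 81.3 and 76.5 CPM in dCas9 cells for PSME1, and 66.3 and 46.1 against 51.9 and 50.9 CPM for PSME2. Both genes had overlapping groups. In mRNA at 72 h both lay higher in 4 of 4 pairs when each Cas9 library was set against each dCas9 library, by 0.19 ± 0.11 and 0.15 ± 0.14 on the log2 scale (SE), and neither passed the test, with adjusted p-values of 0.406 and 0.610 (edgeR's quasi-likelihood test, Benjamini-Hochberg).

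The second question was how much footprint each mRNA carried. The footprint to mRNA ratio in dCas9 cells was set against that of the average gene, within each time point. At 72 h, 26 of the 43 genes had a ratio above the average gene and 3 a ratio below it at a false discovery rate of 0.1, where 32.7% and 37.8% of the 10896 genes tested passed in these directions (70.6% in either). At 36 h, 14 passed above and 6 below, beside 23.6% and 24.6% of 9016 genes (48.2% in either). The median log2 ratio of the members was 0.35 at 72 h and 0.19 at 36 h, and that of all genes tested was -0.06 and -0.01. All 14 that passed above the average at 36 h also did at 72 h, and PSMG3 was the member that passed below it at both times.

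The beta ring genes were among the highest. All 7 beta ring genes passed above the average at 72 h and 5 of 7 did at 36 h, with medians of 0.64 and 0.76. PSMB2 had mRNA of 161 and 157 CPM and footprints of 362 and 376 CPM in dCas9 cells at 72 h, a log2 ratio of 1.22 ± 0.09 (adjusted p = 1.47e-08 by edgeR). PSMB3 had mRNA of 250 and 223 CPM and footprints of 477 and 500 CPM, a log2 ratio of 1.05 ± 0.09 (adjusted p = 7.74e-08). In both genes every footprint value was above every mRNA value. At 36 h the log2 ratios were 0.93 ± 0.12 and 1.07 ± 0.13. GENCODE names 2 pseudogenes of PSMB3 and none of PSMB2, and reads shared with such copies cannot be told apart here.

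The lowest ratios were those of PSMG3, a chaperone of the alpha ring, whose mRNA was 26.5 and 24.3 CPM and whose footprints were 13.2 and 13.2 CPM in dCas9 cells at 72 h. The footprints lay below the mRNA in both replicates, with a log2 ratio of -0.95 ± 0.17 (adjusted p = 1.61e-04). Among the members that passed below the average gene at 72 h, the others were PSME4 with -0.60 ± 0.18 and the ATPase PSMC1 with -0.24 ± 0.11, for which GENCODE names 13 pseudogenes. Among the alpha subunits PSMA3 had the highest ratio (0.84 ± 0.13) and PSMA7 the lowest (-0.08 ± 0.09). Within the regulatory particle PSMC5 was highest among the ATPases (0.87 ± 0.13), PSMD4, the ubiquitin receptor, among the other base subunits (0.36 ± 0.09) and PSMD12 in the lid (0.78 ± 0.19), while PSMC1, PSMD1 (-0.11 ± 0.10) and PSMD7 (-0.12 ± 0.11) were lowest in these groups. Among the caps PSMF1 was highest (0.68 ± 0.13), and among the chaperones PSMD10 (0.54 ± 0.13). At 36 h the highest of the chaperones was PSMG4 with 1.07 ± 0.60, which did not pass and rested on 42 and 26 footprint counts.

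**Figure D2:**
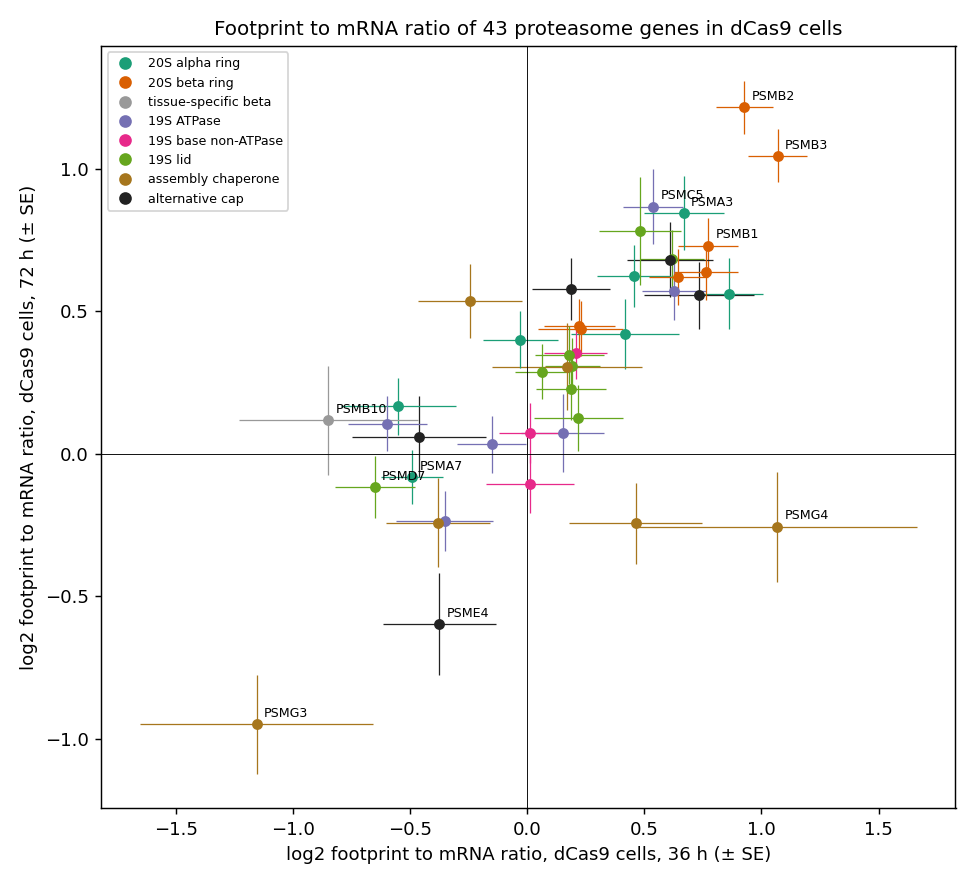
Log2 footprint to mRNA ratio of 43 proteasome genes in dCas9 cells relative to the average gene, at 36 h (x axis) and 72 h (y axis), with SE from the fit as bars and colours for the subunit class. PSMB2 and PSMB3 lie at the top right with values near 1 at both times, and PSMG3 at the lower left with -0.95 at 72 h.

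At 36 h the Cas9 and dCas9 cells were compared gene by gene. No member passed in footprints, in mRNA or in their ratio, and neither did any other gene (0% of 9016 in each), while 3, 0 and 0 members and 862, 26 and 568 genes had an unadjusted p under 0.05. These counts rest on an estimate of the spread that footprint and mRNA libraries share. With each library type fitted alone, 1 member and 188 genes had such a p in footprints, and 3 members and 422 genes in mRNA. No member passed in those fits, and 2 genes passed in mRNA. DESeq2 also called 0 members in all 3 comparisons, and it called 46 genes in footprints (0.51%, with 0.177% higher and 0.333% lower). The median log2 fold change of the members was 0.003 in footprints and -0.036 in mRNA, beside 0.015 and -0.0003 over all genes. In mRNA 34 of 43 members lay lower in Cas9 cells, but the median over the members ran from -0.15 to 0.03 among the 6 single pairs of libraries, so that shift was within the spread between replicates.

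The members with the smallest p in footprints at 36 h were 2 chaperones and 1 base subunit. PSMG1, a chaperone of the alpha ring, was at 42.6 and 31.3 CPM in Cas9 and 58.2 and 54.7 CPM in dCas9 cells, a log2 fold change of -0.69 ± 0.26 (adjusted p = 0.449 by edgeR). PSMD9, a chaperone of the ATPase ring, was at 56.4 and 41.1 against 58.0 and 126 CPM (-0.80 ± 0.32, adjusted p = 0.466). The groups of both genes did not overlap, but the share of all genes without overlap was not counted at 36 h. The high value of PSMD9 came from dCas9 replicate e, where it rested on 78 counts. PSMD2, a scaffold of the base, was at 390 and 384 against 421 and 554 CPM (-0.31 ± 0.13, adjusted p = 0.488), again highest in replicate e. PSMG4 had the lowest fold change (-1.37 ± 0.72), from 10 and 13 counts in Cas9 and 42 and 26 in dCas9 cells. These libraries differ in depth, and in CPM its groups overlapped, at 11.5 and 5.57 against 8.92 and 41.9. The high value again came from replicate e, where it rested on 26 counts. The highest fold changes were those of PSMD10, a chaperone also known as gankyrin, with 0.34 ± 0.24 and PSMG3 with 0.27 ± 0.59. Without dCas9 replicate d, which leaves the shallow replicate e as the lone control and assumes that it varies like the other groups, 4 members passed in footprints (1 higher and 3 lower) and 2 in the ratio (both lower), with PSMD9 at an adjusted p of 0.0200 and PSMD2 at 0.0488 in footprints. Of all genes 10.2% then passed in footprints (5.89% higher, 4.29% lower) and 5.26% in the ratio (3.25% higher, 2.01% lower), so the members' counts were near the background.

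In mRNA at 36 h the members with the smallest p were PSMB10, PSMD10 and the lid subunit PSMD6. PSMB10 was at 15.1, 17.2 and 17.8 CPM in Cas9 and 19.3 and 28.7 CPM in dCas9 cells, with no overlap and a log2 fold change of -0.52 ± 0.28 (adjusted p = 1 by edgeR). How many of all genes had no overlap in mRNA at 36 h was not counted. PSMD10 lay lower by a log2 fold change of -0.26 ± 0.18 and PSMD6 higher by 0.16 ± 0.13. PSMG2 (-0.27 ± 0.25) and PSMG4 (0.20 ± 0.46) were the other extremes. In the ratio at 36 h the extremes were all chaperones: PSMG4 at -1.58 ± 0.86, PSMD9 at -0.77 ± 0.40, PSMD10 at 0.59 ± 0.30 and PSMG3 at 0.46 ± 0.68, with adjusted p-values of 0.810 or more. PSMG1 had the smallest p in the ratio (-0.67 ± 0.32, adjusted p = 0.795 by edgeR).

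At 72 h, 5 of 43 members passed in mRNA, 4 of them lower and 1 higher in Cas9 cells, where 5.2% of the 10896 genes passed lower and 0.422% higher. In footprints 0 members and 0 genes (0%) passed in edgeR and in DESeq2, 0 members and 396 genes had an unadjusted p under 0.05, and the member values ran from -0.39 to 0.16 on the log2 scale.

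PSMC5, the ATPase Rpt6 of the base (chr17:63827152-63832026, plus strand), had the largest change. Its mRNA was at 65.8 and 90.1 CPM in Cas9 and 136 and 159 CPM in dCas9 cells. The groups did not overlap, and the log2 fold change was -0.92 ± 0.13, or 0.529-fold (adjusted p = 0.00107 by edgeR). In bulk samples such as these, fewer cells of a kind and less RNA per cell cannot be told apart. Its footprints were at 242 and 259 CPM against 266 and 272 CPM, lower in both Cas9 libraries, with a log2 fold change of -0.10 ± 0.13 that did not pass. At 36 h its mRNA was at 177, 168 and 187 CPM in Cas9 and 191 and 184 CPM in dCas9 cells, with overlap. PSMC5 overlaps FTSJ3 on the other strand, whose mRNA changed by -0.20 ± 0.11 at 72 h (adjusted p = 0.336), and whether the counting used strand is not given in the sources used here.

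PSMD2, the scaffold Rpn1 of the base that docks ubiquitin receptors (chr3:184299198-184309050, plus strand), had mRNA of 244 and 311 CPM in Cas9 and 384 and 394 CPM in dCas9 cells. The groups did not overlap, with a log2 fold change of -0.49 ± 0.10 (adjusted p = 0.0143 by edgeR). Its footprints, at 392 and 391 CPM against 407 and 413 CPM, did not overlap either, and changed by -0.07 ± 0.11 without passing. For footprints, here and in the genes below, the share of all genes without overlap was not counted.

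PSMF1, which encodes the proteasome inhibitor PI31 (chr20:1113240-1189415, plus strand), had mRNA of 43.6 and 55.1 CPM in Cas9 and 72.5 and 68.9 CPM in dCas9 cells. The Cas9 values were the lower ones, and the log2 fold change was -0.52 ± 0.13 (adjusted p = 0.0336). Its footprints were at 130 and 124 CPM against 123 and 104 CPM, with the Cas9 values above the dCas9 values, and did not pass (0.16 ± 0.14). PSMF1 overlaps TMEM74B on the other strand, which was not tested.

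PSMB2, a beta subunit without a cutting site (chr1:35599541-35641526, minus strand), had mRNA of 119 and 129 CPM in Cas9 and 161 and 157 CPM in dCas9 cells. Its groups did not overlap either (log2 fold change -0.36 ± 0.09, adjusted p = 0.0424). Its footprints were at 399 and 374 CPM against 362 and 376 CPM, with overlap. These 4 genes were picked because their mRNA passed as lower, so lower mRNA in every pair of libraries is not separate support. By the same measure the footprints of PSMC5 and PSMD2 were also lower in every pair. Those of PSMF1 were higher in every pair, and those of PSMB2 overlapped. In footprints at 72 h no gene passed, so not passing there does not set these 4 apart.

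PSMB1, also a beta subunit without a cutting site (chr6:170535120-170553307, minus strand), went the other way. Its mRNA was at 491 and 472 CPM in Cas9 and 319 and 381 CPM in dCas9 cells, without overlap, a log2 fold change of 0.46 ± 0.10 (adjusted p = 0.0125). Its footprints were at 597 and 605 CPM against 602 and 559 CPM, with overlap. At 36 h all 5 genes had overlapping mRNA groups except PSMB2, whose values lay between 184 and 188 CPM in all 5 libraries.

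**Figure D3:**
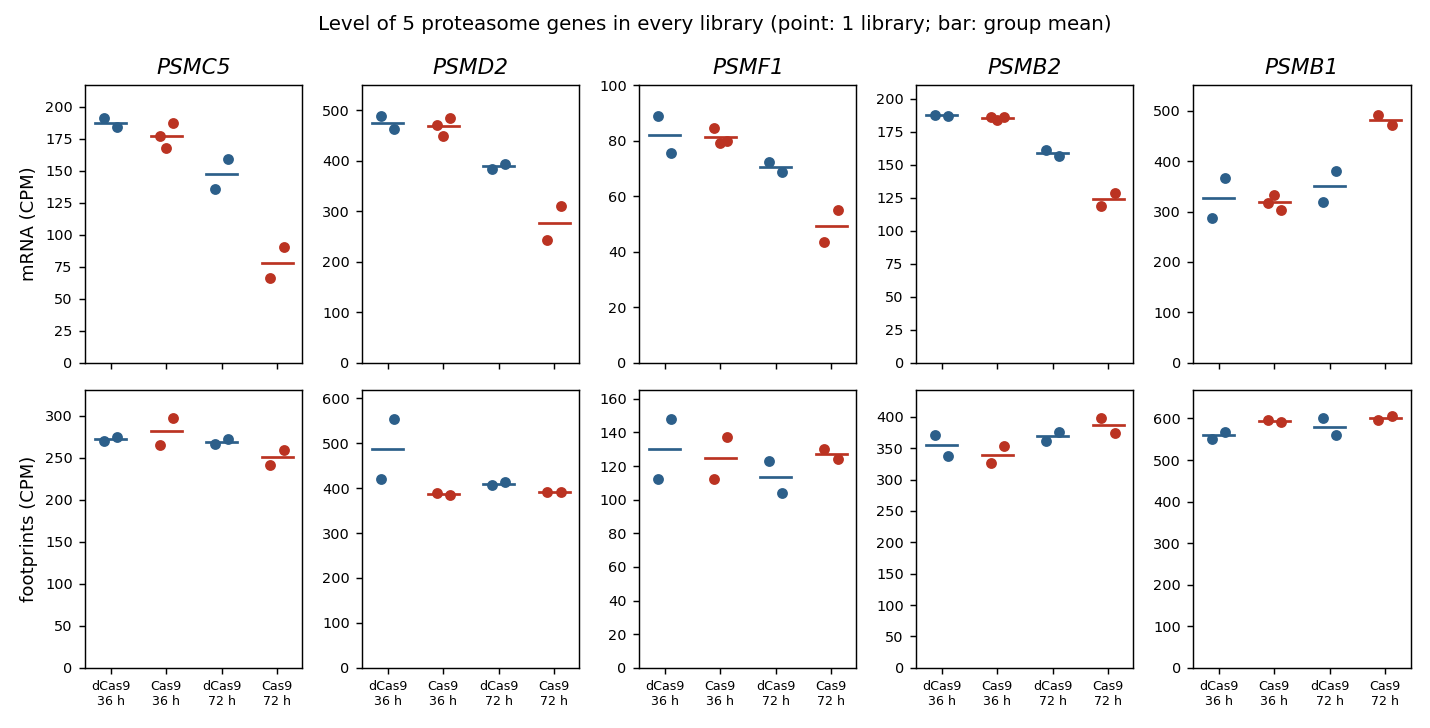
CPM of PSMC5, PSMD2, PSMF1, PSMB2 and PSMB1 in every library, mRNA in the upper and footprints in the lower row, with 1 point per library, a bar for the group mean, and the y axes starting at 0. The mRNA points of Cas9 cells at 72 h lie apart from the dCas9 points in all 5 genes, while the footprint points at 72 h lie close together.

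How firm these 5 calls are depends on the libraries. Fitted on the mRNA libraries alone, PSMC5 (adjusted p = 0.0254) and PSMB1 (0.0961) passed, and PSMD2 (0.113), PSMF1 (0.115) and PSMB2 (0.213) did not, with 293 genes passing (2.69%, of which 0.0275% higher and 2.66% lower) in place of 613 (5.63%). Without Cas9 mRNA replicate a only PSMC5 passed (-0.72 ± 0.14, adjusted p = 0.00256), beside 1.01% of all genes. Without either dCas9 footprint library 4 of the 5 passed, PSMB2 being lost. Without dCas9 mRNA replicate a 10 members passed, 4 higher and 6 lower, beside 7.63% of all genes (1.27% higher and 6.36% lower). Without dCas9 mRNA replicate b 15 members passed, 10 higher and 5 lower, beside 22.7% of all genes (9.86% higher and 12.8% lower), and the 5 above were among them in both cases. The values do not say which of these replicates stands apart.

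The change in footprint to mRNA ratio at 72 h is the footprint change minus the mRNA change, so lower mRNA by itself raises it. PSMC5 was the member that passed, with a log2 change in ratio of 0.82 ± 0.19 (adjusted p = 0.0832 by edgeR, higher in 16 of 16 combinations of libraries), beside 0.698% of all genes passing higher and 0.0184% lower. PSMF1 (0.68 ± 0.19, adjusted p = 0.164), PSMD2 (0.42 ± 0.15, 0.293) and PSMB2 (0.42 ± 0.13, 0.231) were also higher in 16 of 16 combinations and did not pass. Like PSMC5, these genes had passed for lower mRNA in the same libraries, so a higher ratio in them is not separate support. The 16 combinations reuse the same libraries. PSMG2 (-0.58 ± 0.22) and PSMG3 (-0.50 ± 0.27) were the lowest. The call of PSMC5 was lost without Cas9 mRNA replicate a (adjusted p = 0.227) and without any 1 of the 4 footprint libraries, while its sign held. Of the 43 members 29 had a lower ratio in Cas9 cells, with a median of -0.15 beside 0.001 over all genes, and the median over the members was below 0 in 16 of 16 combinations. When 1 library was left out, the members' median in the fit ran from -0.13 to -0.03, weaker than with all libraries.

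Among the members that did not pass at 72 h, the alpha ring genes all lay on the same side, but changes of that size were not particular to the ring. Outside it PSMC2, PSMC6, PSMD6, PSMD14 and PSMG1 lay higher by 0.21 to 0.30, while other members of their classes lay lower. The mRNA of all 7 PSMA genes was higher in Cas9 cells, by log2 fold changes of 0.20 to 0.36, with adjusted p-values of 0.114 to 0.436, and none passed. PSMA6 was the highest, at 134 and 118 CPM in Cas9 and 87.2 and 109 CPM in dCas9 cells. In 6 of the 7 genes every Cas9 value was above every dCas9 value, and in PSMA3 the groups overlapped. Every Cas9 value was above every dCas9 value in 23.8% of all genes tested, and below in 25.8%. The direction of all 7 was the same in all 17 alternatives, where the median ran no lower than 0.13, its value once the trend with GC content was removed, and 0 to 4 of the 7 passed. The lowest of the 7 was at 0.011 with that trend removed and at 0.039 without dCas9 mRNA replicate a. These alternatives refit the same libraries. Footprints of the same genes changed by -0.08 to 0.15.

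The other classes were mixed in mRNA at 72 h. Of the 7 beta ring genes 5 lay higher and 2 lower, of the 6 ATPases 4 and 2, of the 8 lid genes 5 and 3, of the 6 tested chaperones 5 and 1, and of the 5 caps 2 and 3. The catalytic genes PSMB5 (0.05 ± 0.10), PSMB6 (0.13 ± 0.10) and PSMB7 (-0.09 ± 0.10) did not pass. PSMG2, with 43.1 and 42.6 CPM in Cas9 and 27.3 and 36.6 CPM in dCas9 cells, had the highest value after PSMB1, with no overlap (0.42 ± 0.14, adjusted p = 0.133). Over all 43 members 31 lay higher, with a median of 0.11, whereas 52.8% of all genes lay higher, with a median of 0.02. In footprints the extremes were PSMG3 (-0.39 ± 0.22) and PSMG1 (-0.16 ± 0.17), both chaperones, and PSMF1 (0.16 ± 0.14) and PSMA3 (0.15 ± 0.13). PSMB6 and PSMC3 had the smallest p after PSMG3 in footprints, with adjusted p-values of 1.

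**Figure D4:**
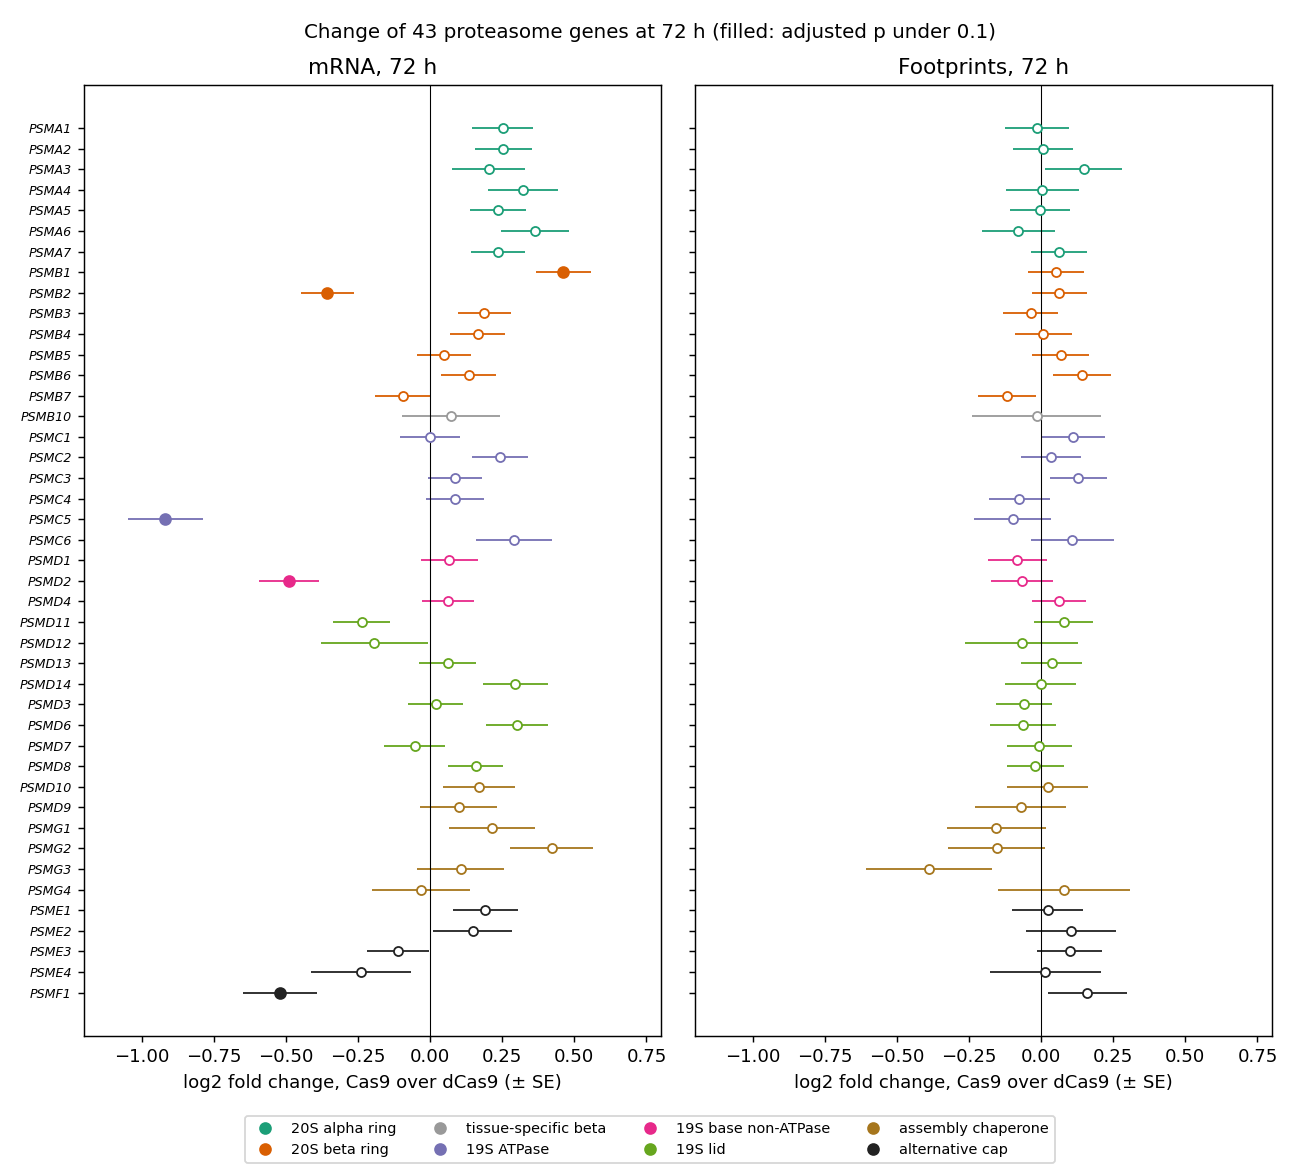
Log2 fold change of 43 proteasome genes at 72 h, Cas9 over dCas9, in mRNA (left) and footprints (right), with SE from the fit as bars, genes ordered by subunit class, and filled points for an adjusted p under 0.1. In mRNA PSMC5 (-0.92), PSMD2, PSMF1 and PSMB2 lie to the left and PSMB1 (0.46) to the right, while no footprint value passes.

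GC content moved with the mRNA change at 72 h and is given beside it. Over the 43 members the rank correlation of coding GC content with the mRNA log2 fold change was -0.37, and over 10856 genes tested it was -0.41. These are correlations across genes of the same libraries and are given without a test. The coding GC content of the members ran from 40.1 to 63.1%, with a median of 49.6%, beside 51.7% for all genes. The 7 alpha ring genes lay between 40.1 and 52.2%. PSMC5 (51.6%), PSMD2 (52.8%), PSMF1 (57.2%) and PSMB2 (50.1%) lay above the median of the members, and PSMB1 (47.7%) below it. With the trend in GC content removed, 17 members passed, 9 higher and 8 lower, beside 18% of all genes (5.26% higher and 12.8% lower), and the 5 above were among them. The part of GC content in the result was not tested further.

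**Figure D5:**
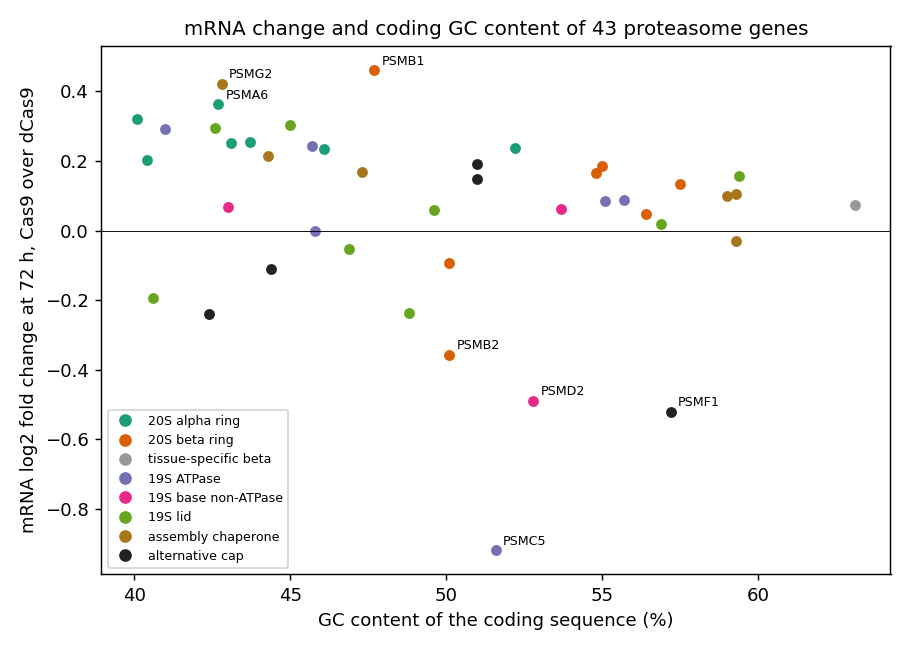
mRNA log2 fold change at 72 h (Cas9 over dCas9) of 43 proteasome genes against the GC content of their coding sequence in %, coloured by subunit class. The genes above 0.34 in size are named: PSMC5, PSMD2, PSMF1 and PSMB2 lie below 0 between 50.1 and 57.2% GC, and PSMB1, PSMG2 and PSMA6 above 0 between 42.7 and 47.7% GC.

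The genes of the proteasome outside the naming rule were read the same way. A list of 23 such genes held the remaining subunits, assembly factors, shuttle factors and transcription factors, and 22 were tested at each time, DDI1 being listed at 0. PAAF1, a chaperone of the regulatory particle that binds its ATPases, was the gene of this list that passed a comparison of Cas9 with dCas9 cells, in mRNA at 72 h, where 1 of 22 passing lower stands beside 5.2% of all genes. It was at 8.06 and 9.32 CPM in Cas9 and 13.0 and 13.2 CPM in dCas9 cells, without overlap (log2 fold change -0.59 ± 0.16, adjusted p = 0.0580 by edgeR). The median of the 22 genes in this comparison was -0.11, and 7 of them lay higher.

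NFE2L1, the transcription factor that raises proteasome genes when the protease falls short, had mRNA of 104 and 117 CPM in Cas9 and 138 and 132 CPM in dCas9 cells at 72 h. It was lower in 4 of 4 pairs and did not pass (-0.29 ± 0.11, adjusted p = 0.156), and its footprints, at 147 and 150 CPM against 133 and 146 CPM, changed by 0.09 ± 0.11. POMP, the chaperone of the beta ring, had mRNA of 71.0 and 61.3 CPM against 39.2 and 66.9 CPM, with overlap (0.32 ± 0.18). Its footprint to mRNA ratio in dCas9 cells, 1.45 ± 0.19 on the log2 scale at 72 h (adjusted p = 4.81e-06) and 1.05 ± 0.23 at 36 h, passed at both times.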

How the data were processed

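Ribosome footprints and mRNA of HEK293 cells were sequenced in 17 libraries. The authors aligned reads with HISAT2 (2.1.0 per the labels) to GENCODE release 22 at 36 h. For 72 h the methods name tophat and release 25, whereas the labels name HISAT2 for every library. The authors deposited counts of reads per transcript from fp-count, without normalization, beside a coding length in codons. A read can be counted on several transcripts of a gene. Transcripts were matched to GENCODE release 44, and the transcript with the highest count was kept for each gene and time point.

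Each time point was fitted in edgeR 4.0.16 (R 4.3.3) with a mean for each nuclease and library type, TMM scaling, the quasi-likelihood test and Benjamini-Hochberg adjustment over all genes at a false discovery rate of 0.1. Genes needed a mean count of 20 in footprint and in mRNA libraries, so that 9016 (36 h) and 10896 (72 h) genes were tested. Errors of fold changes are SE of the fit, and a prior count of 2 was added for values of single pairs. The scripts were tested on simulated data. Alternatives were median-ratio size factors, DESeq2 1.42.0, no count minimum, filterByExpr, each library type alone, a replicate block, removal of the trend in GC content, the 36 h transcript, and each library left out.

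Members and lists were chosen with earlier results of these data known. Named were members past the threshold or with the 3 smallest p-values, the 2 highest and 2 lowest of each comparison, the catalytic, immunoproteasome and PA28 genes, the highest and lowest ratio in dCas9 cells of each class, members under the count minimum, and PAAF1, NFE2L1 and POMP. The 36 h footprints matching Cas9 mRNA replicate b are not analysed here. Replicates share a cell line. In the main fit the footprint and mRNA libraries of a time point share the estimate of each gene's spread. The p-values therefore rest on the spread over both library types, not on that of the mRNA or footprint libraries alone.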

Additional observations from a re-analysis of the deposited data

Results flagged for a closer look

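PSMD10 had mRNA lower in Cas9 cells in 6 of 6 pairs of libraries at 36 h (log2 fold change -0.26 ± 0.18) and higher in 4 of 4 pairs at 72 h (0.17 ± 0.13), so that the time points moved in opposite directions. The difference between the time points was not tested, and neither value passed within its time point. Its mRNA was at 52.8, 50.2 and 52.1 CPM in Cas9 and 60.6 and 63.0 CPM in dCas9 cells at 36 h, and at 53.8 and 53.4 against 49.7 and 45.6 CPM at 72 h.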

How the results depend on the processing

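For mRNA at 72 h, 5 members passed, with 17 once the trend in GC content was removed, 2 with each library type alone, 8 without a count minimum and 1 to 15 when 1 library was left out (1 without Cas9 replicate a, 10 without dCas9 replicate a, 15 without dCas9 replicate b). Over all genes, 613 passed, with 1957 after removal of the GC trend, 293 with each library type alone and 110 to 2472 when 1 library was left out. PSMC5 passed in all 17 alternatives, with adjusted p-values of 3.26e-13 to 0.0254, PSMB1 in 16, PSMD2 and PSMF1 in 15 and PSMB2 in 13, and no sign changed. For the ratio at 72 h, 1 member passed, with 2 in DESeq2, 2 with median-ratio size factors, 2 without a count minimum, 6 after removal of the GC trend and 0 to 9 when 1 library was left out. Over all genes 78 passed there, with 221, 170, 260 and 614 under these settings and 1 to 1065 when 1 library was left out. PSMC5 passed in 11 of 16 alternatives.

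The replicate block by letter gave 5 members for mRNA and 1 for the ratio at 72 h and 0 for the ratio at 36 h, and changed no call of a member. At 72 h same-letter libraries had a correlation of deviations of 0.011 in footprints and -0.14 in mRNA. At 36 h the replicate difference in footprints correlated with that in mRNA at 0.047 for Cas9 and 0.011 for dCas9. The paper describes lysates split for footprints and mRNA, so libraries with the same letter at 36 h may share a lysate. Counting noise in the shallow footprint libraries lowers such correlations, so they cannot show that pairing is absent. The main fit did not take the letters as pairs. A crossed pairing of the mRNA letters, added after the data were seen, gave 9 members (1133 genes) for mRNA and 2 (249 genes) for the ratio.

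At 36 h, leaving out 1 library gave 0 to 4 members in footprints and 0 to 2 in the ratio, and the counts above 0 came without dCas9 footprint replicate d. Footprints at 36 h had 0 genes in edgeR, 46 in DESeq2, 21 without a count minimum and 0 to 918 when 1 library was left out. Ratio levels in dCas9 cells passed for 14 to 22 members at 36 h (20 with all libraries) and 26 to 31 at 72 h (29) when 1 library was left out, beside 2994 to 4889 of 9016 genes and 6623 to 7802 of 10896 genes. The total of 689636 counts in the shallowest footprint library limits what could be seen for chaperones at 36 h.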
